A study of Mus musculus with 9 samples.

Results

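Immunoglobulin G bound to a target is read by a small set of receptors on myeloid cells, and 8 genes of that system were followed here in murine primary cells cultured from tumors (MPC). They were chosen by name: the Fc gamma receptors Fcgr1, Fcgr2b, Fcgr3 and Fcgr4, the adaptor chains Fcer1g and Tyrobp, the kinase Syk and the lectin receptor Clec7a. All 8 were among the 18049 genes listed. The bulk mRNA libraries came from 9 MPC clones of a single genotype, WTg, which is EL1-Luc/EL1-Tag crossed with CAG-Mettl3. In these mice the elastase I promoter drives luciferase and the SV40 large T antigen in the exocrine pancreas, and the broadly active CAG promoter drives Mettl3. The EL1 mice were FVB/N and the Mettl3 transgenic mice were made from BL/6 eggs, so the crossed animals carry both backgrounds. Every clone therefore carries both transgenes, and no clone without them was compared. Age and sex of the mice are not given in the labels. Each clone was a colony taken with a cloning cylinder from cells that had attached and been passaged, and the labels describe pancreas, primary cells from tumors and fibroblasts. A protocol field names NMS-P937, an inhibitor of the kinase Plk1, at 80 nM for 24 h, whereas the treatment field of every sample reads none. The labels do not say which clones share a mouse, so p-values here measure the spread between these cultures.

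Fc gamma receptors bind the constant part of immunoglobulin G. The activating receptors Fcgr1, Fcgr3 and Fcgr4 do not signal alone and are held at the cell surface by the Fc receptor gamma chain, the product of Fcer1g. That chain carries an immunoreceptor tyrosine-based activation motif (ITAM), which Src-family kinases phosphorylate and to which Syk then binds. Tyrobp, also called DAP12, is an ITAM adaptor of similar design that serves other receptors such as Trem2. Fcgr2b is the inhibitory member: it carries an inhibitory motif (ITIM) and recruits the phosphatase SHIP1, the product of Inpp5d. Clec7a, also called Dectin-1, binds fungal beta-glucan and signals to Syk by way of a single-tyrosine form of the ITAM in its own tail. In healthy tissue this set is typical of macrophages and other myeloid cells.

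On the GRCm38.p6 annotation of RefSeq, Fcgr2b (1:170960558-170976071, minus strand), Fcgr4 (1:171018926-171029761, plus strand), Fcgr3 (1:171051169-171065915, minus strand) and Fcer1g (1:171229572-171234349, minus strand) lie within 273.792 kb of chromosome 1. Fcgr1 is on chromosome 3 (3:96282909-96293969, minus strand), Clec7a on chromosome 6 (6:129461591-129472785, minus strand), Tyrobp on chromosome 7 (7:30413782-30417582) and Syk on chromosome 13 (13:52582610-52648792, plus strand). A promoter window was at hand for 7 of the 8 genes, all but Tyrobp. The 250 bases before each start site were searched on both strands for GAGGAA, the purine-rich core bound by PU.1, a factor of the myeloid lineage encoded by Spi1. It was found in 5 of the 7 genes (71.4%) and in 25.9% of 27025 genes with such a window. The matches in the 4 receptor genes are printed to show the motif and its orientation before a start site of each. Each is written 5′ to 3′ on the strand of its gene, with the match in capitals, and TTCCTC is the same motif read from the other strand.
Fcgr1 (3:96294007-96294036): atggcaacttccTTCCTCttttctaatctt
Fcgr3 (1:171059395-171059421): gagtccatttccTTCCTCtttttgtag
Fcgr4 (1:171018892-171018921): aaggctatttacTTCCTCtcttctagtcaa
Clec7a (6:129472858-129472887): aaacaggatctaGAGGAAaaaagggaaatt
The matches of the 3 activating receptors share the orientation TTCCTC and that of Clec7a has the opposite one. The fifth gene with a match was Syk, in 1 of its 2 windows. The matches of Fcgr3 and Syk lie inside the annotated spans of these genes, before internal start sites. The letters were not in the windows of Fcgr2b and Fcer1g. A match describes the sequence only, as no binding was measured here.

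Depth, as reads recovered from the values, ran from 12198036 to 20453901 per library, and a floor of 3 reads corresponded to 3.79 to 6.56 normalized counts. A normalized count is a read count multiplied by 1 factor per library, and values are not divided by gene length, so the differences between clones are read gene by gene, and an order of means within a list is uncorrected for length. The column names of the libraries fall into 3 stems of unstated meaning, Whe10 with 4 clones, Whe3 with 4 and MET_EL with 1, and these were treated as a possible batch. MET_EL was the shallowest library. Xist was between 29664 and 32912 normalized counts in the Whe10 clones, between 0 and 8.39 in the Whe3 clones and at 0 in MET_EL, so stem and sex of the mouse cannot be told apart. No library was a copy of another, as a chi-square test of the closest pair over 15353 genes still gave 22.6 for each degree of freedom.

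The 14 macrophage markers fixed for this work were all present above the floor, although the labels call the cells fibroblasts. Lyz2 reached 407389 ± 81985 and C1qb 50519 ± 10016 normalized counts (SD, n = 9), the highest means of that list. The 12 fibroblast markers were listed too, led by Fn1 at 276558 ± 70160 and Col1a1 at 85587 ± 37951 normalized counts. Lum and Fap were low, with medians of 6.47 and 21.9 normalized counts, and Lum had 0 in its lowest clone. Transcripts of both lists were thus present, and fewer cells of a type cannot be told apart from less RNA per cell.

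Of the activating receptors, Fcgr1 is the high-affinity receptor for immunoglobulin G. It was at 983 normalized counts in MET_EL, at 1957, 2230, 2261 and 1635 in the Whe10 clones 1 to 4, and at 1447, 1188, 1472 and 1638 in the Whe3 clones 1 to 4. MET_EL was lowest, and 3 of the 4 Whe3 clones lay below all Whe10 clones, with the fourth at the level of the lowest of them.

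Fcgr3 is a low-affinity receptor that binds immune complexes. Its values were 9246 normalized counts in MET_EL, 16420, 13829, 15667 and 11564 in the Whe10 clones, and 10010, 8113, 11184 and 12607 in the Whe3 clones. Again 3 of the 4 Whe3 clones were below all Whe10 clones. The range was 2.02-fold around a mean of 12071 ± 2832 (SD, n = 9).

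Fcgr4, a receptor for the IgG2a and IgG2b subclasses, was at 435 normalized counts in MET_EL, at 1015, 960, 1310 and 720 in the Whe10 clones and at 1109, 446, 583 and 709 in the Whe3 clones. Here the first Whe3 clone stood within the range of the Whe10 clones, and the other 3 were below it. The highest clone was 3.01-fold above the lowest, a wider range than the 2.30-fold of Fcgr1. The lowest value rests on 199 reads, with a 95% Wilson interval of 379 to 500 normalized counts that covers counting error only.

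The inhibitory receptor Fcgr2b was at 16699 normalized counts in MET_EL, at 35966, 30887, 29412 and 22938 in the Whe10 clones and at 18393, 16172, 16060 and 25188 in the Whe3 clones. The first 3 Whe3 clones and MET_EL formed a low group, and the fourth Whe3 clone overlapped the Whe10 range. Fcgr2b and Fcgr3 have extracellular parts that are nearly the same in sequence, and how shared reads were assigned is not stated, so the split of reads between them is uncertain.

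The summed activating receptors, Fcgr1, Fcgr3 and Fcgr4, were related to Fcgr2b in each clone. This ratio varied 1.53-fold among clones, less than any of the 4 receptors did. It was lowest in the first Whe10 clone and highest in the third Whe3 clone. The Whe10 clones covered 0.539 to 0.654 and the Whe3 clones 0.594 to 0.824, and the ranges overlapped. Since lengths were not used, only its differences between clones can be read.

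The gamma chain Fcer1g was at 9351 normalized counts in MET_EL, at 13983, 12990, 15898 and 11821 in the Whe10 clones and at 11047, 8535, 10719 and 12802 in the Whe3 clones. Its mean was 11905 ± 2299 (SD, n = 9), with a 1.86-fold range. The third Whe10 clone was highest and the second Whe3 clone lowest.

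Tyrobp had the same highest and lowest clones. It was at 10679 normalized counts in MET_EL, at 14230, 12262, 16310 and 13418 in the Whe10 clones and at 12120, 7940, 12129 and 12936 in the Whe3 clones. The second Whe3 clone stood well below the other 3 of its stem, which were all within 12120 to 12936. The ratio of Tyrobp to Fcer1g varied by only 1.23-fold over the 9 clones. The ratio of Fcer1g to the 3 receptors that need it, taken up after the values had been seen, varied by 1.22-fold.

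Syk, the kinase that docks on phosphorylated ITAMs, had the narrowest range of the 8 genes, 1.38-fold. It was at 4633 normalized counts in MET_EL, at 5450, 5067, 5067 and 4960 in the Whe10 clones and at 3949, 3945, 5253 and 5262 in the Whe3 clones. The Whe3 clones thus fell into a pair below and a pair level with the Whe10 clones.

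Clec7a had the widest range, 12.7-fold, with a coefficient of variation of 71.5% against 11.5% for Syk. It was at 236 normalized counts in MET_EL, at 2326, 1205, 3002 and 1854 in the Whe10 clones and at 944, 343, 2026 and 415 in the Whe3 clones. The third Whe3 clone lay inside the Whe10 range, the other 3 below it, and MET_EL was lowest of all. Its lowest value rests on 108 reads, with a 95% Wilson interval of 196 to 285 normalized counts, so counting error is small beside the range.

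**Figure D1:**
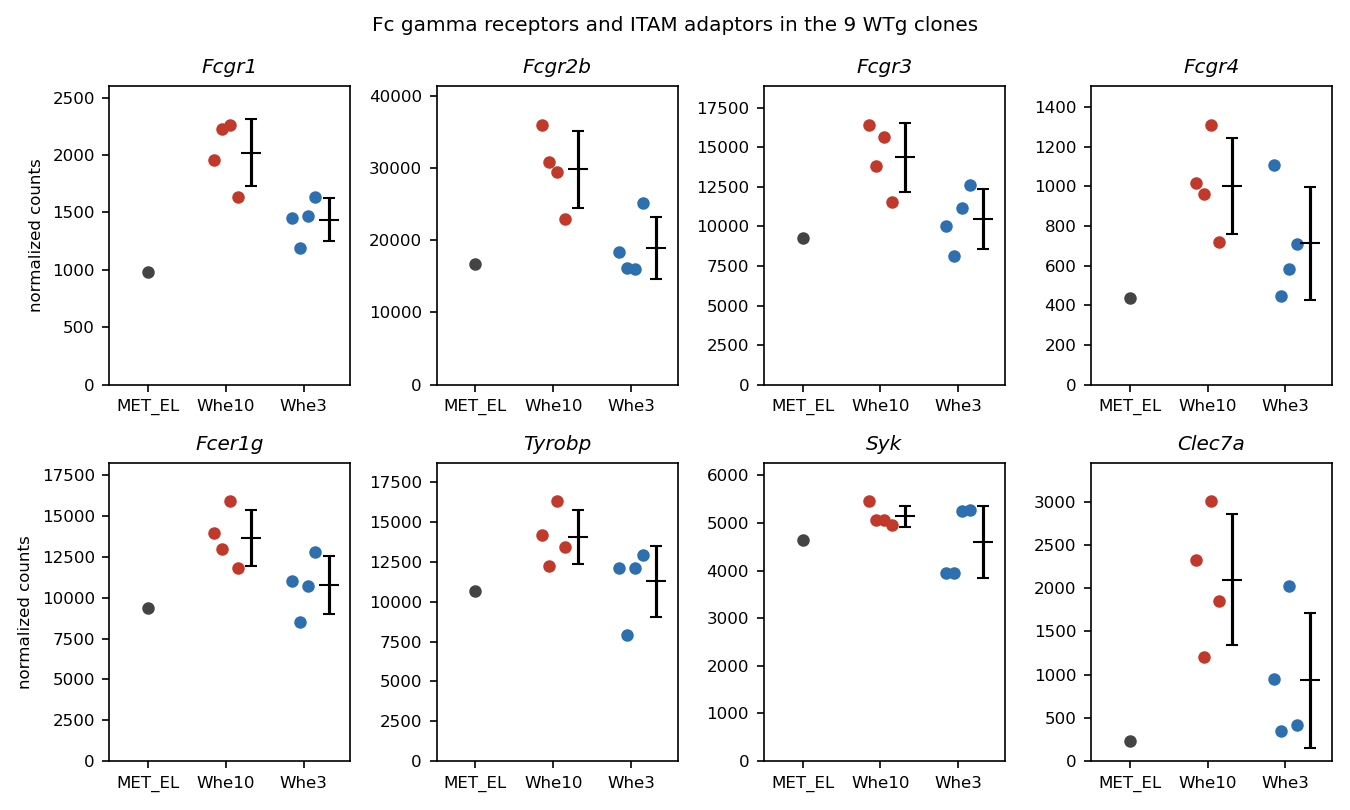
Normalized counts (y axes, linear from 0) of the 8 genes in each clone, by column-name stem; points are clones and the black bar is the mean with its SD over the 4 clones of a stem. Clec7a spreads from 236 to 3002 and Syk only from 3945 to 5450.

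The spread of each gene was set beside that of the 5863 genes with means in the same range, whose median SD of log2 values was 0.17. The SD was 1.33 for Clec7a, larger than in 99.3% of these genes, and 0.57 for Fcgr4, larger than in 94.4%. Fcgr2b (0.44), Fcgr1 (0.40), Fcgr3 (0.34), Tyrobp (0.29) and Fcer1g (0.28) exceeded 77.2% to 90.2% of them. Syk, at 0.17, stood near the middle, above 52.8%. By this SD the receptors lay above the adaptors, with Fcgr3 close to Tyrobp, and the kinase was lowest. This order did not hold after division by the macrophage marker level, which is given below.

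Because the column stems could be a batch, the 4 Whe3 clones were compared with the 4 Whe10 clones across all genes (limma on log2(normalized counts + 1), Benjamini-Hochberg adjustment over 16985 genes). None of the 8 genes passed an adjusted p of 0.05, against 29 genes (0.171%) of all tested. All 8 had a lower mean in the Whe3 clones, with a median log2 difference of -0.48 against -0.02 over all genes, and 52.5% of all genes had a lower mean there. At an unadjusted p under 0.05, 5 of the 8 were lower in Whe3, and 10.4% of all genes were. That count was 2 without the first Whe10 clone, 3 without the third Whe10 clone and 3 without the second Whe3 clone. With voom on the recovered reads 0 of the 8 passed the adjusted threshold and 5 the unadjusted one. In 5.24% of genes every Whe3 clone was below every Whe10 clone, which held for 0 of the 8.

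The log2 difference was -0.49 ± 0.13 (SE) for Fcgr1 (limma adjusted p = 0.158), -0.46 ± 0.16 for Fcgr3 (adjusted p = 0.200) and -0.54 ± 0.28 for Fcgr4 (adjusted p = 0.326). Inhibitory Fcgr2b was at -0.66 ± 0.18 (adjusted p = 0.164). The adaptors were closer to 0, with Fcer1g at -0.35 ± 0.14 (adjusted p = 0.234) and Tyrobp at -0.33 ± 0.16 (adjusted p = 0.306). Syk was at -0.17 ± 0.11 (adjusted p = 0.429). Clec7a had the largest difference and the largest error, -1.46 ± 0.54 (adjusted p = 0.220). Without the second Whe3 clone the difference was -0.17 for Tyrobp, -0.34 for Fcgr4 and -0.10 for Syk, and without the first Whe3 clone it was also -0.10 for Syk.

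**Figure D2:**
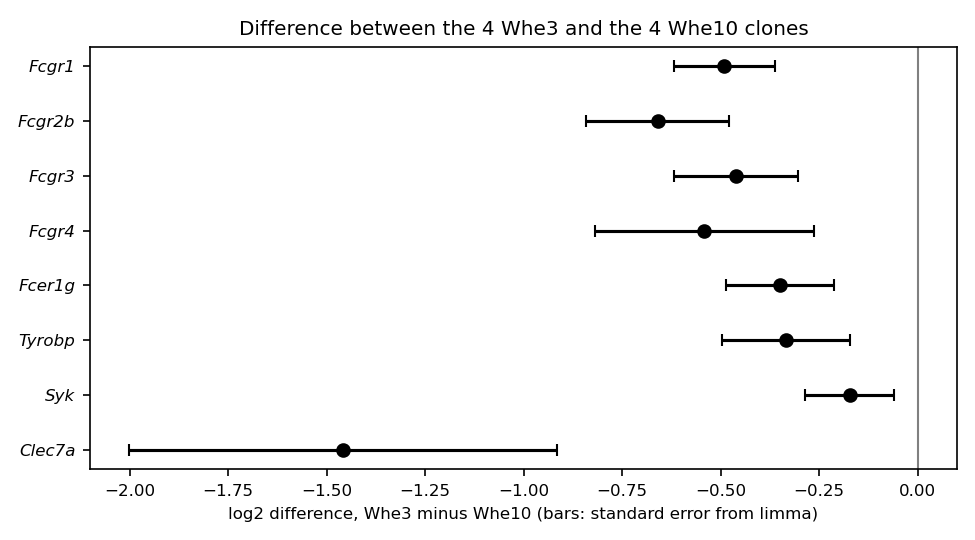
Log2 difference between the means of the 4 Whe3 and the 4 Whe10 clones for each gene (x axis; points, with the limma standard error as bars). All 8 points lie below 0, from -0.17 for Syk to -1.46 for Clec7a, and none passed the adjusted threshold.

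Whether receptors and adaptors varied together was asked for 6 pairs over the 9 clones, with exact two-sided permutation tests over 362880 pairings and Benjamini-Hochberg adjustment over the 6. Fcer1g and Fcgr3 gave the highest Pearson r, 0.958 (exact permutation p = 0.000105, adjusted p = 0.000496), with Spearman's rho at 0.967 (exact permutation p = 0.000165, adjusted p = 0.000992). With the 2 clones of most extreme Fcer1g (farthest from its median) left out, r was 0.938. Within the Whe10 clones it was 0.841 and within the Whe3 clones 0.950. Centred within the stems, r was 0.907 (exact permutation, adjusted p = 0.0347).

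Fcer1g and Fcgr1 had an r of 0.912 (exact permutation p = 0.000854, adjusted p = 0.00128) and a rho of 0.950 (exact permutation p = 0.000353, adjusted p = 0.00106). Without the 2 farthest clones r was 0.917, and it was 0.741 within Whe10 and 0.991 within Whe3. Fcer1g and Fcgr4 had an r of 0.859 (exact permutation p = 0.00336, adjusted p = 0.00403) and a rho of 0.800 (exact permutation p = 0.0138, adjusted p = 0.0166). It did not pass the threshold without the 2 farthest clones, with r at 0.715 over the remaining 7 (exact permutation, adjusted p = 0.0810). Without MET_EL r was 0.823 (exact permutation, adjusted p = 0.0133), while rho, at 0.738, missed the threshold (exact permutation, adjusted p = 0.055). Pearson's r was 0.982 within Whe10 and 0.611 within Whe3, and 0.729 when centred within the stems (exact permutation, adjusted p = 0.106).

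The adaptors Fcer1g and Tyrobp had an r of 0.922 (exact permutation p = 0.000165, adjusted p = 0.000496) and a rho of 0.917 (exact permutation p = 0.00131, adjusted p = 0.00262). Without the 2 farthest clones r was 0.863 (exact permutation, adjusted p = 0.0196), while rho, at 0.821, missed the threshold (exact permutation, adjusted p = 0.0512). Within Whe10 r was 0.809 and within Whe3 0.940. Inhibitory Fcgr2b and activating Fcgr3 had an r of 0.919 (exact permutation p = 0.000615, adjusted p = 0.00123) and a rho of 0.883 (exact permutation p = 0.00308, adjusted p = 0.00461). Without the 2 farthest clones r was 0.967, and it was 0.900 within Whe10 and 0.700 within Whe3. Centred within the stems, the r of 0.785 missed the threshold (exact permutation, adjusted p = 0.0755). The uncertain split of shared reads between Fcgr2b and Fcgr3 applies here too, and its part in this r was not tested.

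For the kinase and the lectin, Syk and Clec7a, no relation was detectable with 9 clones. Here r was 0.505 (exact permutation p = 0.168, adjusted p = 0.168) and rho 0.600 (exact permutation p = 0.0968, adjusted p = 0.0968). Without the 2 farthest clones r was 0.547, within Whe10 0.271 and within Whe3 0.335. Over all 28 pairs of the 8 genes r was positive, from 0.255 for Fcgr4 with Syk to 0.958, with a median of 0.753. These pairs share libraries and are given as a description.

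**Figure D3:**
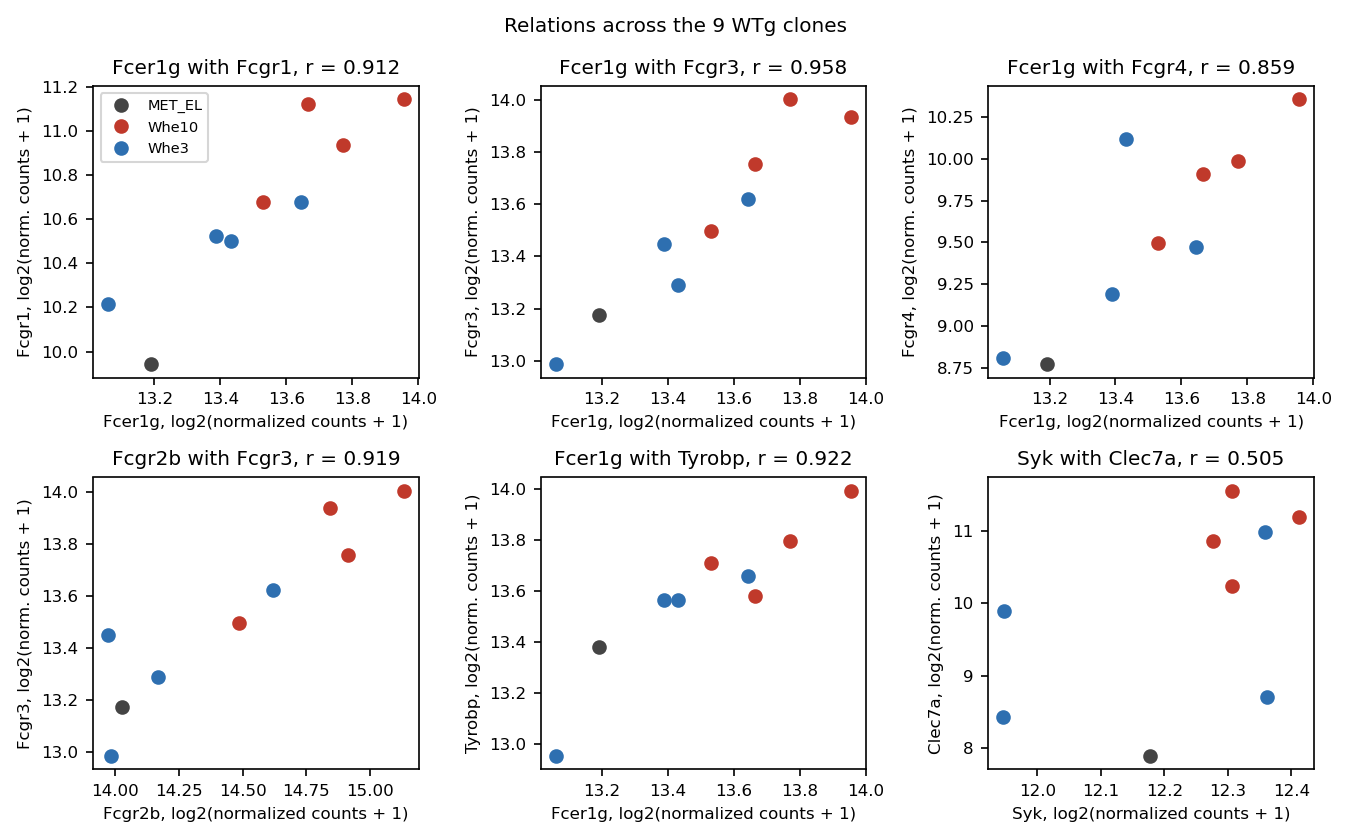
Each panel plots 2 genes against each other as log2(normalized counts + 1), with 1 point per clone coloured by stem and Pearson's r over the 9 clones in its title. The points of Fcer1g with Fcgr3 lie nearest to a line (r = 0.958), and those of Syk with Clec7a scatter (r = 0.505).

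On average the macrophage markers moved with these genes, although single markers did not in every clone. Their mean level on the log2 scale was 13.58 in MET_EL, 14.11 in the Whe10 clones and 13.67 in the Whe3 clones. Their summed level was 647210 normalized counts in MET_EL, 691187 to 783502 in Whe10 and 536650 to 838545 in Whe3. The highest sum was that of the fourth Whe3 clone, in which Lyz2 alone had 577311. Cd14 was highest in MET_EL, at 6219 normalized counts. All 14 had a lower mean in Whe3, 9 of them at an unadjusted p under 0.05 and 0 past the adjusted threshold, beside 52.5% of all genes with a lower mean and 10.4% lower at that unadjusted p. Of the 12 fibroblast markers 9 had a higher mean in Whe3, beside 47.5% of all genes. The other 3 were lower there, with log2 differences of -1.79 for Dcn, -2.07 for Lum and -0.20 for Fap. The summed level of the 12 was 758158 normalized counts in MET_EL, 349734 to 569682 in Whe10 and 484514 to 934353 in Whe3. Pearson's r with the mean macrophage marker level ran from 0.682 for Fcgr4 to 0.956 for Fcgr3, and with the fibroblast marker level from -0.852 for Fcgr1 to -0.197 for Syk, as a description over the 9 clones.

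Each gene was also divided by the mean macrophage marker level in its clone. The SD of log2 values was then smaller for Fcgr3, moving from 0.34 to 0.11, and for Fcer1g, from 0.28 to 0.12. It went from 0.29 to 0.15 for Tyrobp, from 0.40 to 0.21 for Fcgr1 and from 0.44 to 0.25 for Fcgr2b. Fcgr4 kept 0.43 of 0.57 and Clec7a 1.11 of 1.33, and Syk went from 0.17 to 0.18. As this ratio, 3 of the 8 genes had a higher mean in Whe3 than in Whe10 on the log2 scale, Syk by 0.27, Tyrobp by 0.10 and Fcer1g by 0.09. The other 5 had a lower one, from -0.02 for Fcgr3 to -1.02 for Clec7a. The part of macrophage content in the differences and relations above was not tested.

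**Figure D4:**
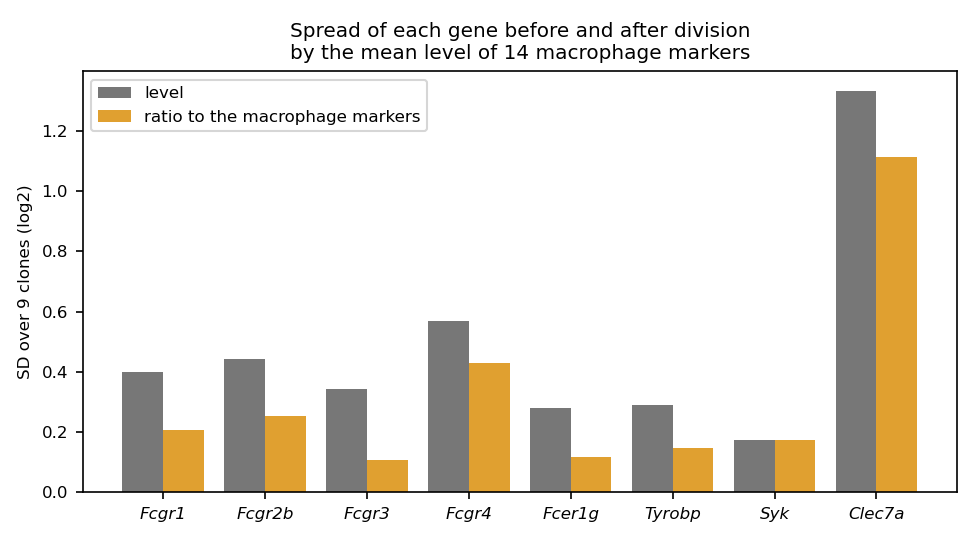
SD over the 9 clones of each gene's log2 value (grey bars) and of its ratio to the mean of the 14 macrophage markers (orange bars), both from 0. Fcgr3 and Fcer1g drop to 0.11 and 0.12, while Clec7a stays above 1 and Syk does not drop.

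Markers of other cells that can carry Fc receptors were mostly low or not among the genes listed. Of the 8 mast cell markers 6 are not among the genes listed, Hdc was at or under the floor in every clone and Kit reached 15.9 normalized counts at most. Of the 8 NK cell markers only Eomes was listed, at or under the floor in every clone. Among B cell markers Pax5 was at or under the floor and Cd22, also carried by other cells, was at 183 ± 71.7 normalized counts (SD, n = 9). Among T cell markers Cd247 was at or under the floor, Cd4 averaged 33.8 and Lck 4.41 normalized counts. Neutrophil markers were listed for 3 of 10, with Csf3r at 552 ± 323 and Mmp8 at 517 ± 305 normalized counts. Platelet markers were listed for 3 of 5, and Pf4, which macrophages can also express, was at 3245 ± 1663. Of the dendritic cell markers 1 of 6 was listed, Zbtb46 at 39.9 ± 9.67. Of the 5 epithelial markers Epcam had 0 reads in every clone and Krt8 was at or under the floor, while Krt19 averaged 55.2 and Cdh1 37.1.

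The genes that act after an ITAM is phosphorylated were all listed. None of the 26 Src and Syk signalling genes passed the adjusted threshold between stems. In Whe3, 19 had a lower and 7 a higher mean, beside 52.5% of all genes with a lower one. The median log2 difference was -0.18. The highest means in that list, uncorrected for length, were those of Pik3ap1, an adaptor of phosphoinositide 3-kinase, at 9127 ± 2772 normalized counts, and of Prkcd, protein kinase C delta, at 5739 ± 499 (SD, n = 9). Their log2 differences were -0.63 and -0.13. Of these 26 genes 12 had an unadjusted p under 0.05, against 18.5% of all genes, and 8 of them were lower in Whe3, against 10.4% of all genes.

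In a list of phosphatases, Dok adaptors and Csk, 8 of 10 genes had a lower mean in Whe3, beside 52.5% of all genes. In this list 0 passed the adjusted threshold, and 4 were lower at an unadjusted p under 0.05, beside 10.4% of all genes. The list was led by Inpp5d, the phosphatase that Fcgr2b recruits, at 7178 ± 1246 normalized counts (SD, n = 9). Next was Ptprc, the leukocyte phosphatase CD45, at 7162 ± 1120, which is also in the macrophage marker list. The median log2 difference was -0.20. Among 11 ITIM receptors and related receptors, Lilr4b included, 7 had a lower and 4 a higher mean in Whe3 with 0 past the adjusted threshold. At an unadjusted p under 0.05 there were 4 of the 11, beside 18.5% of all genes. Of these, 2 were lower in Whe3, beside 10.4% of all genes. Sirpa, the receptor for CD47, averaged 35634 ± 7956, and Lilrb4a, an inhibitory leukocyte receptor, 19049 ± 4540.

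Receptors that borrow the adaptors were less complete. Of 9 partners of Fcer1g, 4 were listed, and the lectins Clec4d (6698 ± 1102) and Clec4n (3100 ± 1766), which sense microbial glycans and glycolipids, had the highest means in normalized counts. A higher mean in Whe3 was found for 3 of these 4 genes, beside 47.5% of all genes, with a median log2 difference of 0.62, and 0 passed the adjusted or the unadjusted threshold. Clec4n and Pira2 were highest in the fourth Whe3 clone, at 1.98 and 2.68 times the next clone. Of 9 partners of Tyrobp 6 were listed. In Whe3, 3 had a lower and 3 a higher mean, beside 52.5% of all genes with a lower one, and 0 passed the adjusted threshold. At an unadjusted p under 0.05 there were 2 of the 6, beside 18.5% of all genes. These were Trem2, lower in Whe3 (log2 difference -0.55), and Clec5a, higher there (0.46). Trem2, a lipid receptor of macrophages, averaged 12260 ± 3185 and Cd300lb 3407 ± 811 normalized counts (SD, n = 9).

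Other receptors that bind immunoglobulin, or belong to the Fc receptor-like family, were listed for 5 of 11. All 5 had a lower mean in Whe3, beside 52.5% of all genes, and 0 passed the adjusted threshold. At an unadjusted p under 0.05, 3 of the 5 were lower, beside 10.4% of all genes. Fcrls, an Fc receptor-like gene, averaged 18133 ± 7083 and Fcgrt, the neonatal Fc receptor that recycles immunoglobulin G, 3218 ± 700 normalized counts (SD, n = 9). Of the 7 remaining ITAM and related chains only Hcst and Cd247 were listed. Hcst, also called DAP10, averaged 72.6 ± 24.3, and Cd247, the T cell receptor zeta chain, stayed at or under the floor.

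Of the 12301 genes that averaged 50 normalized counts or more, those whose log2 values most resembled Fcer1g over the 9 clones were C1qc (r = 0.977), Lmo2 (0.977), Sephs2 (0.974), Gng2 (0.973) and Fam234a (0.971), beside a median r of 0.062 over all genes. C1qc encodes a chain of complement C1q and Lmo2 a transcriptional co-factor of blood cells. For the mean z-score of the 8 genes, the closest were Gm5431 (r = 0.990), Rgmb (0.988), Grcc10 (0.988), Unc93b1 (0.987) and Scamp2 (0.986), beside a median of 0.052. Unc93b1 carries Toll-like receptors to endosomes. The mean z-score was highest in the third Whe10 clone, at 1.17, and lowest in the second Whe3 clone, at -1.45, with MET_EL at -1.11.

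Genes beside the receptors on chromosome 1 followed Fcer1g less closely. Between Fcgr2b and Fcer1g the annotation holds 11 protein-coding genes, both ends included, and 10 of them were listed. Sdhc, a subunit of succinate dehydrogenase, had an r of 0.565 with Fcer1g, Pcp4l1 0.528, Tomm40l 0.433 and Cfap126 0.064, whereas Fcgr2b, Fcgr4 and Fcgr3 had 0.876, 0.859 and 0.958. Cfap126 averaged only 21.6 ± 7.48 normalized counts (SD over the clones), Sdhc 2351 ± 137, Tomm40l 738 ± 46.2 and Pcp4l1 418 ± 120. These levels and spreads differ from those of the receptors, so the r values are not like for like. Position alone was not tested against these values. Pcp4l1, Sdhc, Tomm40l and Cfap126 are named because of where they lie and were picked after the values were seen.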

How the data were processed

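Polyadenylated RNA of 9 MPC clones was sequenced from stranded libraries. The authors deposited log2 values of read counts scaled by 1 factor per library, with an offset of 4. FastQC 0.11.9, STAR 2.7.10, RSEM 1.3.3 and build GRCm38 are named in the submitters' processing notes, without their roles. The annotation, the scaling software and the treatment of shared reads are not given in the sources used here. Another 6 columns, of MEF libraries from other series, were not used.

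Normalized counts were obtained by undoing the log2 and subtracting 4, and reads by dividing by the step between low values, which gave whole reads for 100% of nonzero values under 1000 reads. Column names show the group WTg but match no single sample title. The stems Whe10 and Whe3 were compared with limma 3.58.1 (R 4.3.3, lmFit and eBayes with trend) on log2(normalized counts + 1), for genes averaging 1 normalized count or more, with Benjamini-Hochberg adjustment at 0.05. Relations were tested with exact permutations written in Python 3.11.15 with NumPy 2.4.6, and ranks came from SciPy 1.17.1. The comparison of Whe3 with Whe10 was also run on simulated data over 16985 genes. There it recovered 95% of 2-fold and 100% of 4-fold changes, and 2.98% of calls were unchanged genes. Recovery at the spread of the 8 genes between these clones was not tested. In the clones, Clec7a had a log2 difference of -1.46 ± 0.54 (SE) and did not pass the threshold (limma adjusted p = 0.220). Intervals are Wilson intervals at 95%.

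The 8 genes, the marker lists and the pathway lists were chosen with earlier results of these data known. The text names the 8 genes, the 2 genes with the highest mean of each list and those with 0 reads in all clones, any list genes past the threshold (there were 0, with 2 to be named per list) and the 5 genes most like Fcer1g and most like the mean z-score. Other named list genes were picked after their values were seen. Promoter sequences are from RefSeq, on GRCm38.p6, and matched 7 of 8 genes. Of the gene IDs, 18033 of 18049 matched the names table. Scaling, pseudocount, filter, variance model, voom and left-out clones were varied.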

Additional observations from a re-analysis of the deposited data

Results flagged for a closer look

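Among 24 sets of values examined (each of the 8 genes over the 9 clones and within each stem of 4), the gap of an extreme clone to its nearest neighbour passed Dixon's 95% limit in 1, where chance gives about 1.2. This was Tyrobp in the Whe3 clones: the second clone, at 7940 normalized counts, stood below the other 3, at 12120, 12129 and 12936, with a gap of 0.837 of the range against a limit of 0.829 for 4 samples. Fcgr3 and Fcer1g were also lowest in that clone, at 8113 and 8535 normalized counts.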

How the results depend on the processing

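None of the 8 genes passed the adjusted threshold between Whe3 and Whe10 under any of 16 alternatives, and each kept a lower mean in Whe3 in 16 of 16. The adjusted p of Clec7a came nearest, at 0.0635 without the third Whe3 clone, within a range up to 0.438. The count of all genes called was 29, and 15 without a filter on low values, 17 without the variance trend and between 10 and 263 when 1 clone was left out, the 263 without the third Whe3 clone. Leaving out any clone but the first Whe3 clone moved this count by over 1.5 times. The cause was not tested. The relation of Fcer1g with Fcgr4 missed the threshold without the 2 farthest clones (r = 0.715) and centred within stems (r = 0.729), and that of Fcgr2b with Fcgr3 when centred (r = 0.785). By Pearson's r the other relations kept their side of the threshold in 7 of 7 alternatives. By Spearman's rho, Fcer1g with Tyrobp missed it without the 2 farthest clones (exact permutation, adjusted p = 0.0512). Fcer1g with Fcgr4 missed it by rho without those clones too (exact permutation, adjusted p = 0.2), and without MET_EL (exact permutation, adjusted p = 0.055). No paired analysis was possible because the numbers in the column names match no sample title and all columns hold a single group. The order of the genes per length, the length-corrected ratios and the coding-length alternative were not run, as no transcript lengths were used. The depth limits only values near 3 reads, and the lowest value of the 8 genes rests on 108 reads.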

Other observations

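Several list genes that are not Fc gamma receptors were high in single clones, and these were picked after their values were seen. Fgr, a Src-family kinase of myeloid cells, reached 592 normalized counts in the fourth Whe3 clone, 4.53-fold above the next clone. Pira2, an activating receptor that pairs with Fcer1g, reached 3152 in the same clone, 2.68-fold above the next, and Clec4n reached 7334, 1.98-fold above the next. Clec4e, also called Mincle, was highest in MET_EL at 2698, 1.59-fold above the next clone. Clec5a, a partner of Tyrobp, was highest there too at 3029 normalized counts, but only 1.20-fold above the next clone. It was at 1521 to 2515 in the Whe3 clones and at 1202 to 1481 in the Whe10 clones. Each of these highest values comes from 1 clone and has no replicate.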
